A study of Mus musculus with 12 samples.

Results

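The genes described here are the Wnt ligands, the Frizzled receptors with their co-receptors Lrp5 and Lrp6, the secreted modulators of this pathway and the target genes Axin2 and Lef1. They were chosen by gene name, by a rule that uses no measured value, and 47 of the 56860 genes in the count table matched. These are 19 Wnt ligands, 12 receptors, 4 genes of the R-spondin axis, 10 secreted inhibitors and 2 targets. RNA was sequenced from primary mammary tumours of mice with the MMTV-PyMT transgene, taken at 4.5 months, with 4 tumours for each of 3 genotypes. WT tumours carried MMTV-Cre and MMTV-PyMT per the design text, while their strain label names MMTV-PyMT alone. C3_KO tumours carried MMTV-Cre, the C3Tdt allele of complement component C3 and MMTV-PyMT. S1pr1_KO tumours carried MMTV-Cre, S1pr1fl/fl and MMTV-PyMT, where S1pr1 is a receptor for sphingosine-1-phosphate. PyMT is the middle T oncogene of polyoma virus, and the MMTV promoter is active mainly in mammary epithelium. Stromal and immune cells may therefore still carry an intact targeted gene. Replicate numbers only name libraries, and no label tells if each tumour is from its own mouse. The p-values thus measure the spread between these samples, which may be technical.

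Wnt proteins are secreted, lipid-modified ligands that bind Frizzled receptors. With Lrp5 or Lrp6 they stabilise beta-catenin, which enters the nucleus and acts with TCF and LEF factors on targets such as Axin2, itself a brake on the pathway. Some ligands, such as Wnt5a, also signal without beta-catenin. In the mammary gland Wnt signals maintain basal stem cells and drive side branching, and Wnt1 is known as a gene activated by insertion of mouse mammary tumour virus.

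Library totals ran from 230.4 M to 484 M counts (M, 1000000), and 43 of the 47 members passed edgeR's filter on low counts and were tested. Dkk1, Dkk4, Rspo2 and Wnt7a did not pass, with at most 84 counts in any library. Markers of luminal epithelium were present in every library, at a summed level of 1258 to 3888 FPKM, and none of the 14 was at 0. C3 and S1pr1 themselves overlapped between their knockout genotype and WT. C3 was 41.6 to 75.1 CPM (counts per 1000000, TMM-scaled) in C3_KO against 43.3 to 182 CPM in WT, and S1pr1 at 2.59 to 7.43 CPM in S1pr1_KO against 2.88 to 8.02 CPM in WT. Other libraries stood apart in content. S1pr1_KO replicates 1 and 4 were rich in salivary gland transcripts, with summed marker levels of 121706 and 4919 FPKM against at most 632 FPKM elsewhere. C3_KO replicate 3 was rich in milk transcripts, with 21446 FPKM against at most 1887 FPKM elsewhere.

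S1pr1_KO replicate 3 held Axin2 at 57.3 CPM and the others at 1.40 to 8.58 CPM. C3_KO replicate 2 held Lef1 at 13.4 CPM and the others at 1.00 to 4.15 CPM. The promoter windows of Axin2 and Wnt6, both high in the former tumour, and of Fzd10 and Lef1, both high in the latter, are shown because these genes stood high together in single tumours. Each window spans 250 bases before to 50 after a start site annotated by RefSeq (build GRCm38.p6, which is older than the authors' build), and capitals mark the TCF/LEF core CTTTG on either strand.
Axin2, chr11:108920099-108920398, + strand: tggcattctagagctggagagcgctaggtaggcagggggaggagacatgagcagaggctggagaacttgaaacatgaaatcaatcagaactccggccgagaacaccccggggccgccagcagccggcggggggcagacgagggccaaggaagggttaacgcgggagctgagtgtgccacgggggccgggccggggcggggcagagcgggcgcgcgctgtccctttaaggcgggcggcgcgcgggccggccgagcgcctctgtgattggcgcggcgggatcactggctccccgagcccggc
Wnt6, chr1:74771642-74771941, + strand: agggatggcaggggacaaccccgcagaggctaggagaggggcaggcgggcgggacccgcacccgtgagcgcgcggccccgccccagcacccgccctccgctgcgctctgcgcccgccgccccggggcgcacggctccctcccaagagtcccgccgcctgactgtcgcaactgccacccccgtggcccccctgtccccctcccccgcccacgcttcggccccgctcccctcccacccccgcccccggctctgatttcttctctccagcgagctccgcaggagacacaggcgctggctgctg
Fzd10, chr5:128600856-128601155, + strand: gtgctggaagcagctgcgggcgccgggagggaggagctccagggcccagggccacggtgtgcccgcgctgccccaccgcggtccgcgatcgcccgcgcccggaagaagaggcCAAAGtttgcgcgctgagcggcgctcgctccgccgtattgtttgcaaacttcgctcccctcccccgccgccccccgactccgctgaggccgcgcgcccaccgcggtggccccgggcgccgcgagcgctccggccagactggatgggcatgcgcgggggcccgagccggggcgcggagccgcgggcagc
Lef1, chr3:131110047-131110346, + strand: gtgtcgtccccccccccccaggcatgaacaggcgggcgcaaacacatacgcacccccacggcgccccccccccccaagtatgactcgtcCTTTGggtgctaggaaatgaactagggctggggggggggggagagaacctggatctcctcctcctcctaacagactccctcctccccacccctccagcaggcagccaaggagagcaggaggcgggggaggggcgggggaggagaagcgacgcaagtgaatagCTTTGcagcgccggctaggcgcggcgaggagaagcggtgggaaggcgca
Positions count from 1 at the 5′ end. The core was found at position 113 of the Fzd10 window as CAAAG, and at positions 90 and 252 of the Lef1 window, the one of lowest coordinate among 4 windows listed for Lef1. The Axin2 and Wnt6 windows do not hold these letters. Among all 32851 windows of this length, 53.9% hold the core, and of the 35 windows of the 29 members that matched by symbol, 18 (51.4%) do. The longer form CTTTGAT is in 2 of the 35 windows and in 3.73% of all, and CTTTGTT in 3 of the 35 and in 5.85% of all. A match is a description of the letters and not a binding site.

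Levels between genes are given in FPKM, which divides by gene length. Of the 47 members, 4 had a median of at least 10 FPKM over the 12 tumours, 20 of at least 1 FPKM and 34 of at least 0.1 FPKM. The highest medians were those of the secreted inhibitor Sfrp1 (25.7 FPKM), the co-receptor Lrp5 (19.3 FPKM), the ligand Wnt5b (17.8 FPKM) and the receptor Fzd7 (15.4 FPKM). These 4 overlapped in level across tumours, with ranges of 8.33 to 46.6, 11.6 to 28.2, 15.8 to 34.9 and 10.5 to 20.6 FPKM. At the other end, the 8 lowest medians were those of Dkk4, Wnt3, Wnt1, Wnt3a, Wnt7a, Wnt8b, Dkk1 and Rspo2. Rspo2 had no count in 6 of the 12 libraries and Dkk1 in 5.

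**Figure D1:**
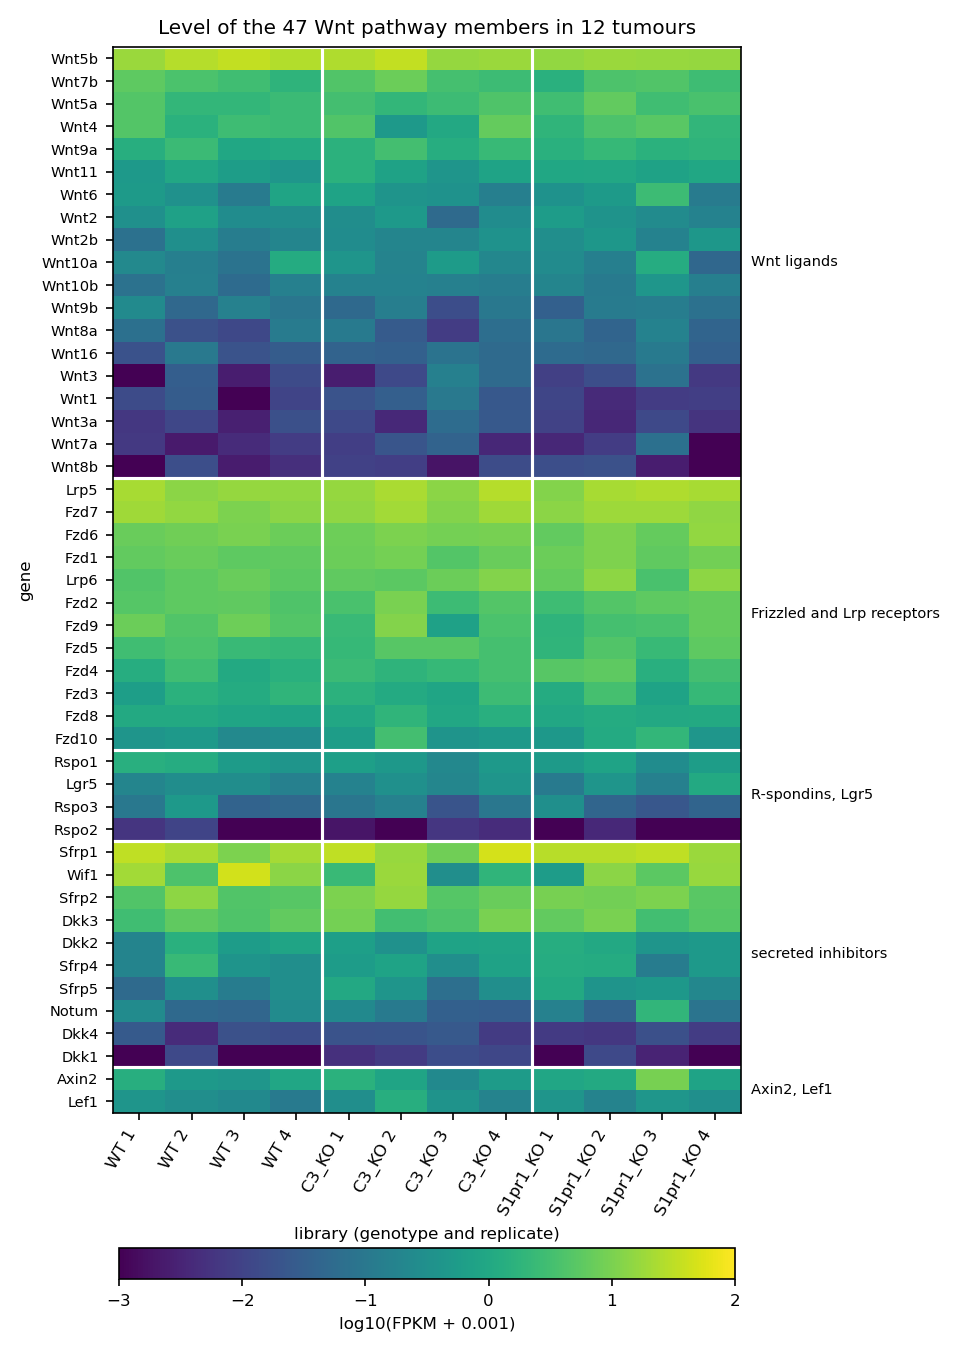
Level of each of the 47 members in each of the 12 tumours, as log10(FPKM + 0.001) in colour, with genes in rows grouped by role and libraries in columns grouped by genotype. Sfrp1, Lrp5, Wnt5b and Fzd7 were bright in every tumour, and Axin2 (9.34 FPKM) and Notum (1.95 FPKM) stood out in S1pr1_KO replicate 3.

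Among the ligands, Wnt5b had the largest share in every tumour. Its part of the summed ligand FPKM ran from 45.8% in S1pr1_KO replicate 3 to 77.1% in WT replicate 3. Wnt5b, Wnt7b, Wnt5a and Wnt4 together made up 79.6 to 94.6%, and S1pr1_KO replicate 3 had the lowest share. Wnt7b and Wnt5a, with medians of 3.55 and 2.90 FPKM, were followed by Wnt4 (2.69 FPKM), a ligand that progesterone induces in the mammary gland, and Wnt9a (1.59 FPKM). Their ranges overlapped, and no single order of all 4 held in every tumour. Wnt7b alone kept its place against another of them, above Wnt9a in each tumour. The closest was S1pr1_KO replicate 1, with 5.75% of the ligand FPKM against 5.68%. Wnt4 varied most of them, from 0.498 FPKM in C3_KO replicate 2 to 6.46 FPKM in C3_KO replicate 4. The other 14 ligands had medians below 1 FPKM. The summed ligand level ran from 26.4 to 50.7 FPKM.

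**Figure D2:**
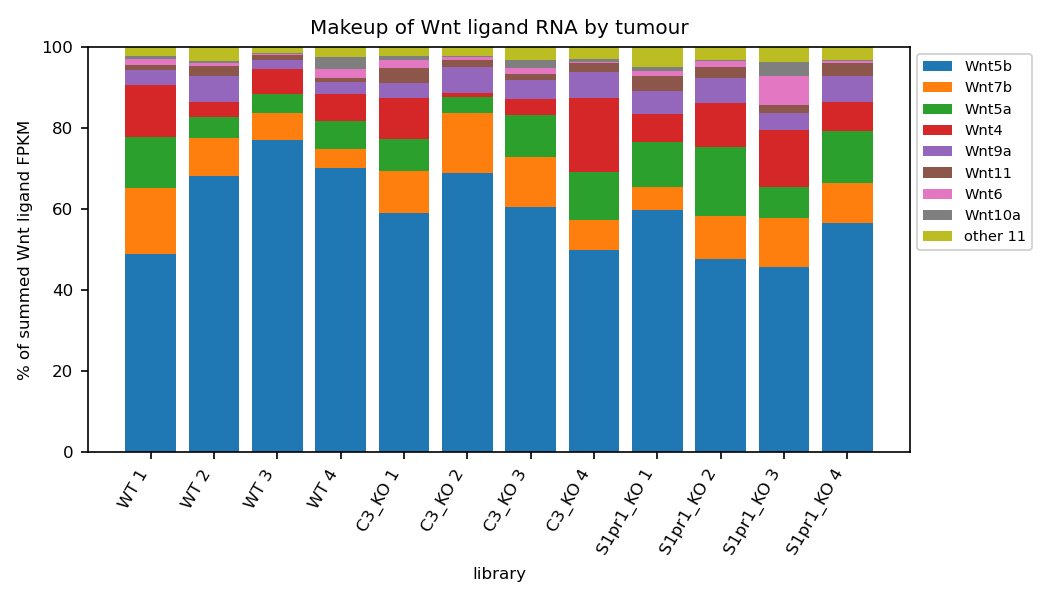
Share of each Wnt ligand in the summed ligand FPKM of each tumour, in percent, stacked to 100, with the 11 ligands of lowest share drawn together. Wnt5b took 45.8 to 77.1%, and Wnt6 reached 7.16% in S1pr1_KO replicate 3.

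Among the receptors, Fzd7 led the 10 Frizzled genes in 11 of the 12 tumours, with 23.0 to 38.9% of their summed FPKM. In S1pr1_KO replicate 4 Fzd6 led, with 24.2% against 23.0% for Fzd7. Fzd6 and Fzd1 followed with medians of 8.53 and 7.26 FPKM, and Fzd10 was lowest at 0.474 FPKM. Lrp6, the other co-receptor, had a median of 6.35 FPKM. It stood at 130, 145 and 163 CPM in C3_KO replicate 4 and S1pr1_KO replicates 2 and 4, and at 54.9 to 113 CPM in the other 9 tumours. These 3 libraries also had low totals, of 237.1 M, 284.1 M and 230.4 M counts, while S1pr1_KO replicate 1, with 248.7 M, had Lrp6 at 104 CPM. The same 3 libraries had the highest TMM scaling factors, of 1.23, 1.30 and 1.17, against 0.884 in S1pr1_KO replicate 1. Whether depth or scaling has a part in the Lrp6 level was not tested. Most steady were Fzd7 and Fzd1, whose FPKM varied across the 12 tumours with coefficients of variation of 21.0% and 22.7%.

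Among the modulators, Sfrp1, which binds Wnt proteins, was followed by Wif1, another Wnt-binding inhibitor, at 9.48 FPKM, Sfrp2 at 7.92 FPKM and Dkk3, a divergent Dickkopf protein, at 5.40 FPKM. Of the other Dickkopf genes, whose proteins bind Lrp5 and Lrp6, Dkk2 ran from 0.177 to 1.51 FPKM with a median of 0.736 FPKM, while Dkk1 and Dkk4 reached at most 14 and 11 counts in any tumour. Wif1 varied far more than Sfrp1, from 0.299 FPKM in C3_KO replicate 3 to 45.6 FPKM in WT replicate 3. Of the R-spondins, which raise Frizzled levels at the cell surface through Lgr receptors, Rspo1 was highest at 0.540 FPKM. Lgr5, an R-spondin receptor and stem cell marker, had a median of 0.237 FPKM and reached 1.07 FPKM in S1pr1_KO replicate 4.

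S1pr1_KO replicate 3 had the highest CPM of the 12 tumours for 9 of the 43 members tested (20.9%), while 7.74% of all 30660 genes tested peaked there. The 9 were Axin2, Notum, Lrp5 and the ligands Wnt4, Wnt6, Wnt8a, Wnt10a, Wnt10b and Wnt16. In the deposited FPKM, Lrp5 (28.2 FPKM) and Wnt4 (6.46 FPKM) were highest in C3_KO replicate 4. The rest of the 9 were highest in S1pr1_KO replicate 3 in FPKM as well. In CPM, Axin2 was 6.67-fold above the next highest tumour, WT replicate 1. In the other S1pr1_KO tumours Axin2 was 5.76, 4.55 and 3.71 CPM in replicates 1, 2 and 4. Notum, which removes the lipid from Wnt proteins and is itself a beta-catenin target, was 5.22 CPM in this tumour. It was 0.0583 to 0.719 CPM in the other 11. Wnt6 was 6.54 CPM against at most 1.89 CPM elsewhere. Wnt10a, which lies next to Wnt6 in the genome, was 3.43 CPM in this tumour and 3.04 CPM in WT replicate 4, with at most 1.45 CPM in the others. Of the 4 pairs of neighbouring ligand genes, only Wnt6 and Wnt10a peaked in the same tumour. Wnt10b was 1.61 CPM against 0.201 to 0.719 CPM. Lef1 did not stand apart in this way, at 4.15 CPM against 4.07 CPM in WT replicate 1. Only C3_KO replicate 2, at 13.4 CPM, had more Lef1, and the median of the other 11 tumours was 2.45 CPM.

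Other genes of the pathway, from a list of 85 of which 82 were tested, also peaked in this tumour. By CPM the count was 18 of 82 (22.0%), as many as in C3_KO replicate 2, and among 16 listed target genes it was 6. In the deposited FPKM fewer of the 82 peaked in C3_KO replicate 2, so the counts were not equal. Lgr6, for instance, was then highest in C3_KO replicate 4 and Kremen1 in S1pr1_KO replicate 4. Of the 18 of S1pr1_KO replicate 3, only Porcn and Znrf3 peaked in another tumour in FPKM. By FPKM, however, S1pr1_KO replicate 2 held more peaks of the 82 than S1pr1_KO replicate 3, and S1pr1_KO replicate 4 held a similar number. Another 8 of the 82 (9.76%) had their lowest CPM in S1pr1_KO replicate 3, against 11.8% of all genes tested. The genes below were chosen for mention after their values were seen. Nkd1, a feedback inhibitor, stood at 18.7 CPM against 1.16 to 9.89 CPM in the other 11 tumours. Apcdd1, an inhibitor at the cell membrane, was 21.6 CPM against 2.81 to 8.99 CPM, and the transcription factor gene Tcf7 was 38.6 CPM against 6.55 to 24.0 CPM. Tnfrsf19 was 47.4 CPM against 13.6 to 29.0 CPM. Ascl2, a target in intestinal stem cells, was 1.42 CPM against 0.167 to 0.906 CPM. Among those lowest there, Ctnnb1, which encodes beta-catenin, was 297.7 CPM against 326 to 713 CPM. Wls, which carries Wnt proteins to the cell surface, was 49.2 CPM against 65.4 to 277 CPM, and the listed target Prox1 was 1.26 CPM against 1.73 to 6.14 CPM. The member Lrp6 was also lowest there, at 54.9 CPM against 70.2 to 163 CPM. Of cell type markers, the 10 basal and myoepithelial genes summed to 755 FPKM in S1pr1_KO replicate 3, and none was at 0. These 10 summed to 259 to 946 FPKM in WT, 268 to 592 FPKM in C3_KO and 174 to 465 FPKM in the other S1pr1_KO tumours. The 12 skin keratinocyte markers summed to 51.3 FPKM in S1pr1_KO replicate 3, with none at 0. They summed to 8.13 to 9.53 FPKM in the other S1pr1_KO tumours and 8.92 to 16.9 FPKM in WT. In C3_KO replicates 1 to 4 they summed to 18.9, 11.0, 217 and 61.8 FPKM, so replicates 3 and 4 had more. The luminal markers summed to 3304 FPKM in S1pr1_KO replicate 3. They summed to 1258 to 2009 FPKM in the other S1pr1_KO tumours, 2040 to 3888 FPKM in WT and 2119 to 3180 FPKM in C3_KO. The luminal genes did not move together. In S1pr1_KO replicate 3 Krt18 was 1086 FPKM, while Epcam was at its lowest, 154 FPKM against 167 to 358 FPKM elsewhere. The part of cell makeup in these levels was not tested. In RNA from whole tumours, fewer cells of a type and less RNA per cell cannot be told apart.

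C3_KO replicate 2 had the highest CPM for 12 of the 43 members (27.9%), against 8.98% of all genes tested. These included 7 of the 10 Frizzled genes, namely Fzd1, Fzd2, Fzd5, Fzd7, Fzd8, Fzd9 and Fzd10. The others were Wnt5b, Wnt7b, Wnt9a, Sfrp2 and Lef1. In CPM the lead over the next tumour was small for Fzd7 (1.04-fold), Wnt5b (1.04-fold) and Fzd5 (1.06-fold). In the deposited FPKM, Fzd1 was highest in S1pr1_KO replicate 2 and Fzd5 in S1pr1_KO replicate 4. The rest of the 12 were highest in C3_KO replicate 2 in FPKM as well. Lef1, a partner of beta-catenin and a target of it, was 3.23-fold above the next tumour. Fzd2 was 41.0 CPM against 10.6 to 24.3 CPM elsewhere, and Fzd8 was 12.2 CPM against 5.06 to 7.35 CPM. Axin2 was not raised in this tumour, at 5.07 CPM. The tumours highest in Axin2 and in Lef1 thus differed, and Fzd10 was high in both. It reached 11.4 CPM in the Lef1-high tumour and 7.34 CPM in the Axin2-high one, against 0.817 to 2.90 CPM in the other 10. The skeletal muscle markers, 10 genes with none at 0, summed to 699.5 FPKM in C3_KO replicate 2. They summed to 5.47, 55.2 and 227 FPKM in C3_KO replicates 1, 3 and 4. The span of the other tumours was 1.97 to 1446 FPKM, and only WT replicate 2 had more. The part of muscle in the levels of C3_KO replicate 2 was not tested.

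**Figure D3:**
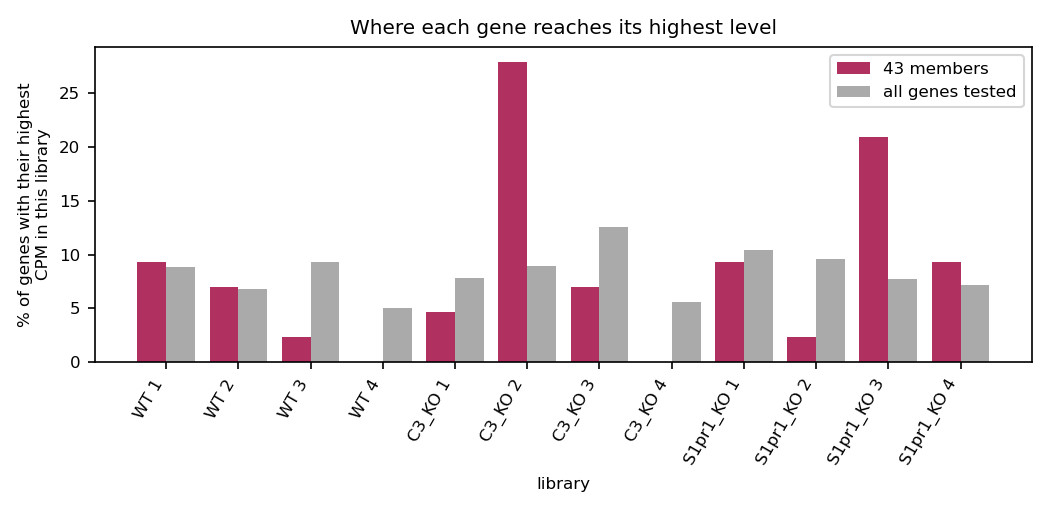
Percentage of genes that reached their highest CPM in each library, for the 43 members tested and for all 30660 genes tested. C3_KO replicate 2 (27.9% against 8.98%) and S1pr1_KO replicate 3 (20.9% against 7.74%) took more members than their share of all genes.

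Further libraries held single members apart. WT replicate 2 had Sfrp2 at 30.0 CPM, Sfrp4 at 9.47 CPM and Rspo3 at 1.56 CPM, where the other WT tumours reached 11.5, 1.79 and 0.359 CPM. This tumour was the richest in skeletal muscle markers, with 1446 FPKM against 4.49, 21.1 and 19.9 FPKM in the other WT tumours. Its fibroblast markers summed to 582 FPKM against 194 to 243 FPKM in the other WT tumours and its adipocyte markers to 165 FPKM against 8.89 to 23.0 FPKM, with no marker of these lists at 0, and their part was not tested. Rspo3 was also 1.06 CPM in S1pr1_KO replicate 1 against at most 0.104 CPM in the other S1pr1_KO tumours, and the adipocyte sum there was 554 FPKM. C3_KO replicate 3 held the highest levels of the rare ligands Wnt1, Wnt3 and Wnt3a, at 0.263, 0.504 and 0.171 CPM, or 83, 159 and 54 counts. It was also the lowest tumour for 12 of the 43 members (27.9%) and for 22 of the 82 other pathway genes (26.8%), against 11.2% of all genes tested. Its skin keratinocyte markers summed to 217 FPKM against at most 61.8 FPKM elsewhere. The part of skin or milk-producing cells in these levels was not tested.

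The first comparison asked how tumours with the modified C3 allele differ from WT in these genes. No member was called in C3_KO against WT by edgeR at an adjusted p of 0.05, and 0% of the 30660 genes tested were called. With no adjustment, 2 members of 43 (4.65%) had a p under 0.05, against 6.23% of all genes. They were 1 higher and 1 lower, where 3.62% and 2.61% of all genes were. Of the 43, 26 had a positive log2 fold change (60.5%, against 54.2% of all genes), with a median of 0.10 against 0.05 over all genes. The median was -0.058 without C3_KO replicate 2. No member parted the groups, where 3.04% of all genes did (1.32% higher, 1.72% lower). The count of members called also stayed at 0 with limma-voom and quality weights, without S1pr1_KO replicate 3, and without that tumour and C3_KO replicate 2 together, settings in which 0.0163%, 0.0256% and 0.0258% of all genes were called.

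Rspo1 had the smallest p of the members. It was 1.18, 1.01, 0.453 and 0.799 CPM in C3_KO replicates 1 to 4 and 3.16, 2.35, 1.18 and 0.819 CPM in WT. The groups overlapped through WT replicates 3 and 4. It stood at log2 -1.12 (SE 0.47, edgeR adjusted p = 0.765). Fzd10 was next, at 3.98 ± 4.94 CPM in C3_KO and 1.19 ± 0.379 CPM in WT (SD, n = 4). Its log2 fold change of 1.74 (SE 0.75, edgeR adjusted p = 0.765) fell to 0.35 without C3_KO replicate 2. Lef1 stood at log2 1.05 with an SE of 0.68 and turned to -0.06 without the same tumour. Wif1 was 5.46, 47.3, 0.789 and 3.61 CPM in C3_KO and 56.9, 9.81, 121 and 34.9 CPM in WT. Here 3 of the 4 C3_KO tumours lay below every WT tumour and replicate 2 lay within the WT range. It stood at log2 -1.96 (SE 1.18, edgeR adjusted p = 0.765) and at -4.08 without C3_KO replicate 2. The rare ligands Wnt1 and Wnt3 stood at log2 1.77 and 2.22, and at 0.83 and 0.69 without C3_KO replicate 3. The abundant members overlapped as well. Sfrp1 was 134, 83.2, 39.6 and 166 CPM in C3_KO against 49.0 to 170 CPM in WT, and Wnt7b was 20.5, 41.0, 17.5 and 10.4 CPM against 9.33 to 33.2 CPM. Lrp5 was 151, 249, 146 and 223 CPM against 128 to 250 CPM. Fzd7 was 62.0, 104, 58.1 and 71.8 CPM against 52.0 to 100 CPM. Axin2 overlapped widely, at 8.11, 5.07, 1.40 and 2.52 CPM in C3_KO against 8.58, 2.76, 2.51 and 5.22 CPM in WT.

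By role in C3_KO against WT, 10 of 18 ligands, 10 of 12 receptors, 4 of 8 inhibitors and 1 of 3 genes of the R-spondin axis had positive log2 fold changes. None passed the test. Of the other pathway genes none of 82 was called, 39 had positive values and the median was -0.01. Over all genes tested, 54.2% had positive values. Smallest in p were the transcription factor gene Sox9 at log2 -0.86 (SE 0.33) and Dvl2, which relays the Frizzled signal, at -0.58 (SE 0.25), both with an edgeR adjusted p of 0.765.

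The second comparison asked the same of tumours with floxed S1pr1. It shares its WT libraries with the first. No member was called in S1pr1_KO against WT by edgeR, and 0% of the 30660 genes tested were called. With no adjustment, 3 members of 43 (6.98%) had a p under 0.05, against 15.5% of all genes. They were 2 higher and 1 lower, where 7.69% and 7.78% of all genes were. Positive log2 fold changes were found for 29 of 43 (67.4%, against 51.7% of all genes), with a median of 0.11 against 0.03 over all genes.

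Wnt5b, the most abundant ligand, had the smallest p. It was 47.4, 36.1, 50.7 and 36.2 CPM in S1pr1_KO and 54.2, 72.6, 99.1 and 75.2 CPM in WT. Every S1pr1_KO tumour lay below every WT tumour in TMM-scaled CPM, the only one of 43 to part these groups, as 7.58% of all genes did (4.8% in this direction). In the deposited FPKM the groups overlapped, since S1pr1_KO replicate 2 (17.742 FPKM) exceeded WT replicate 1 (17.719 FPKM). Wnt5b stood at log2 -0.82 (SE 0.30, edgeR adjusted p = 0.251). With limma-voom and quality weights it was -1.01 and passed (limma adjusted p = 0.00823), a setting that called 25.5% of all genes. Over its 23 alternatives its log2 fold change ran from -1.01 to -0.61 and the adjusted p from 0.00823 to 0.739. Low values were also found in C3_KO, where Wnt5b was 38.4 to 103 CPM, with replicate 2 highest. That span reached from below the WT range to above it. Against WT, C3_KO stood at log2 -0.27 (SE 0.30, edgeR adjusted p = 0.831).

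Fzd4, a receptor of blood vessel cells that also binds norrin, was 37.9, 29.2, 10.5 and 18.3 CPM in S1pr1_KO replicates 1 to 4. It was 10.2, 19.8, 7.92 and 10.7 CPM in WT. S1pr1_KO replicates 1 and 2 lay above the WT range and replicates 3 and 4 within it. Fzd4 stood at log2 0.98 (SE 0.37, edgeR adjusted p = 0.262). Without S1pr1_KO replicate 3 it was 1.27 and passed (edgeR adjusted p = 0.048), where 4.25% of all genes were called. Without this tumour and C3_KO replicate 2 together both Fzd4 (edgeR adjusted p = 0.0345) and Wnt5b (edgeR adjusted p = 0.0405) passed, where 9.97% of all genes did. For Fzd4 the adjusted p over its 23 alternatives ran from 0.00923 to 0.746. The 12 blood endothelial markers, none at 0, summed to 56.4, 61.4, 37.3 and 43.4 FPKM in S1pr1_KO and 18.9 to 41.2 FPKM in WT. The 10 adipocyte markers, none at 0, summed to 554, 742, 19.3 and 64.5 FPKM in S1pr1_KO and 8.89 to 165 FPKM in WT. The 11 B and plasma cell markers, none at 0, summed to 76.3 and 52.6 FPKM in S1pr1_KO replicates 1 and 2 and to at most 10.8 FPKM in the other 10 tumours. All 3 sums were highest in the same pair of tumours as Fzd4. Replicate 1, with the most Fzd4, was also the richest in salivary markers, at 121706 FPKM against 377 FPKM in replicate 2. The part of these contents in the Fzd4 level was not tested.

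Axin2 averaged 17.8 ± 26.3 CPM in S1pr1_KO and 4.77 ± 2.82 CPM in WT (SD, n = 4), or log2 1.90 (SE 0.88, edgeR adjusted p = 0.321). Without S1pr1_KO replicate 3 it was 0.01. Fzd10 stood at log2 1.46 (SE 0.75) and at 0.74 without this tumour, and Wnt10b at 0.99 (SE 0.53) and 0.37. Rspo1 was 1.15, 1.19, 0.576 and 1.00 CPM in S1pr1_KO, within or below the WT range, at log2 -0.94 with an SE of 0.47 (edgeR adjusted p = 0.355). It stood at -0.57 without WT replicate 1. Lgr5 was 1.32, 3.14, 1.69 and 9.42 CPM in S1pr1_KO against 1.60 to 3.14 CPM in WT, with replicate 4 above the WT range and replicate 1 below it. The most abundant inhibitor Sfrp1 was 145, 95.5, 159 and 67.2 CPM against 49.0 to 170 CPM in WT. Lrp5 was 128, 166, 272 and 185 CPM in S1pr1_KO against 128 to 250 CPM in WT, at log2 0.08 (SE 0.29). Fzd7 was 69.2, 65.1, 94.6 and 58.1 CPM against 52.0 to 100 CPM, at log2 -0.00047 (SE 0.26). Wnt7b was 8.43, 14.8, 24.3 and 11.6 CPM against 9.33 to 33.2 CPM. These abundant members overlapped with WT.

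**Figure D4:**
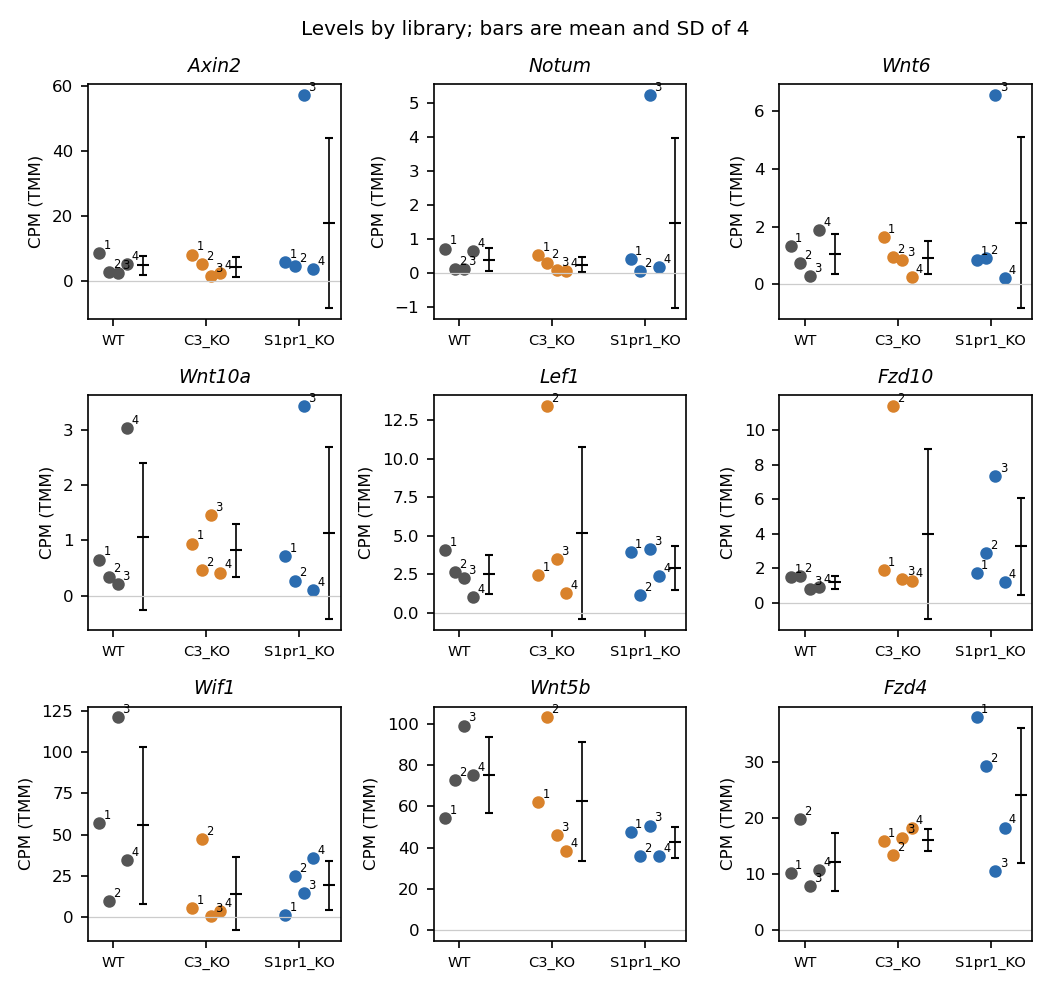
CPM of 9 members in each of the 12 tumours, with points numbered by replicate and bars for the mean and SD of the 4 tumours of a genotype. S1pr1_KO replicate 3 stood apart for Axin2 (57.3 CPM), Notum (5.22 CPM) and Wnt6 (6.54 CPM), C3_KO replicate 2 for Lef1 (13.4 CPM) and Fzd10 (11.4 CPM), while Wnt5b was lower in all 4 S1pr1_KO tumours than in WT.

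By role in S1pr1_KO against WT, 12 of 18 ligands, 8 of 12 receptors and 6 of 8 inhibitors had positive log2 fold changes, as did both targets and 1 of 3 genes of the R-spondin axis. None passed. Of the other pathway genes none of 82 was called, 50 had positive values and the median was 0.11. Over all genes tested, 51.7% had positive values. Of the 82, 3 parted the groups (3.66%, against 7.58% of all genes), Ror1 and Daam2 as higher and Wls as lower. Ror1, a receptor for Wnt5a, was higher in every S1pr1_KO tumour, at log2 0.95 with an SE of 0.33 (edgeR adjusted p = 0.244), where 2.78% of all genes parted the groups as higher. Daam2, which acts with Dishevelled, stood at log2 0.77 (SE 0.35, edgeR adjusted p = 0.320). Wls stood at log2 -1.14 (SE 0.46, edgeR adjusted p = 0.278), and its groups overlapped in FPKM. Apcdd1 stood at log2 1.24 with an SE of 0.47 (edgeR adjusted p = 0.260). Its FPKM was 0.613, 0.909, 1.51 and 0.352 in S1pr1_KO replicates 1 to 4 and 0.199 to 0.479 in WT. Replicate 3 was thus highest, and replicate 4 lay within the WT range.

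**Figure D5:**
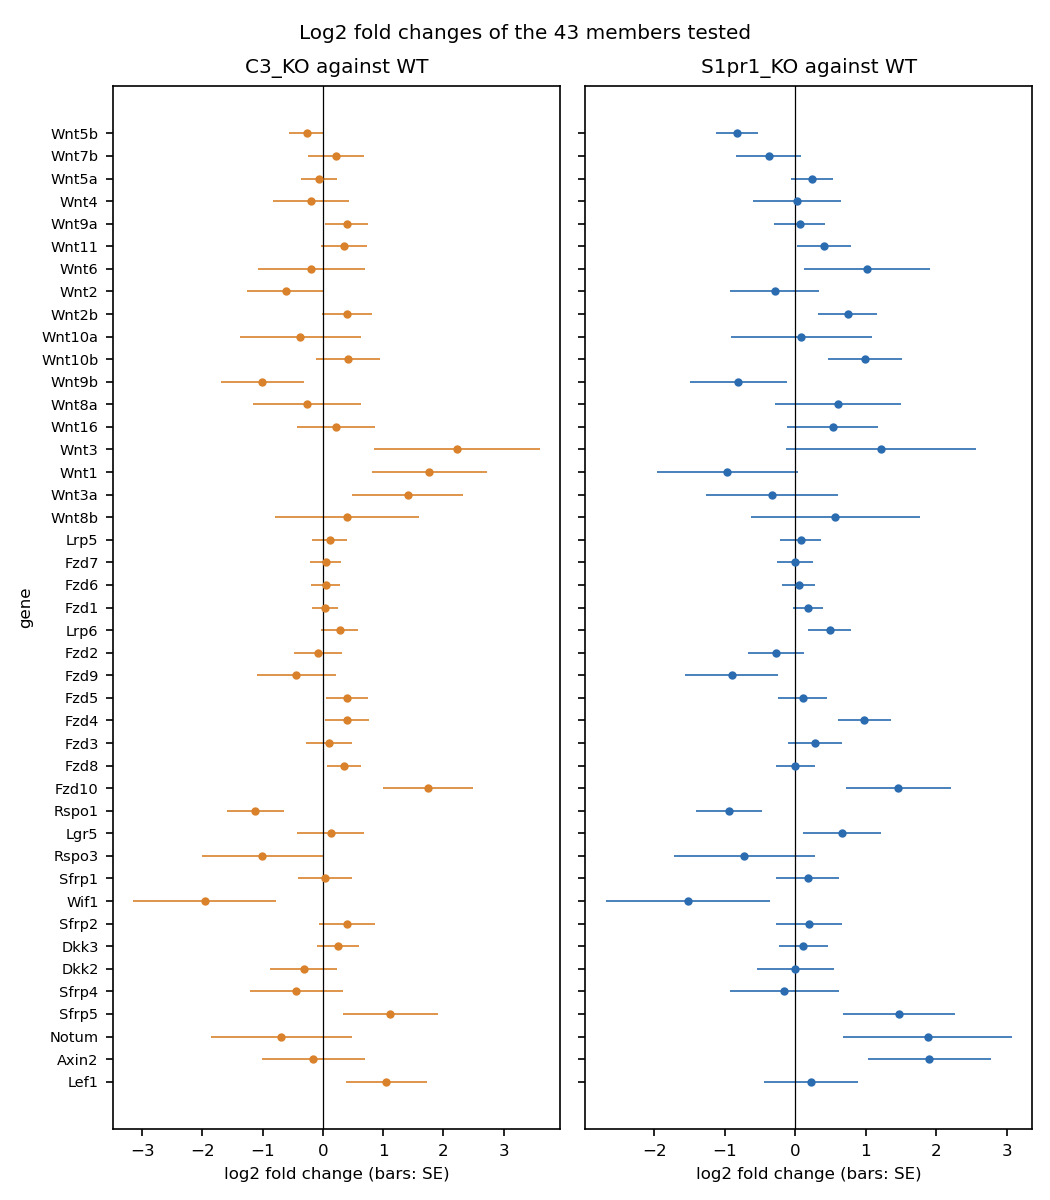
Log2 fold changes of the 43 members tested in C3_KO against WT and in S1pr1_KO against WT, with bars for the SE and genes ordered by role and level. No member passed an edgeR adjusted p of 0.05 in either comparison, and the well-expressed Fzd7 sat at 0.04 and -0.00047.

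The knockout genotypes were also compared with each other, with the spread again estimated over all 12 libraries. No member was called in S1pr1_KO against C3_KO, and 0% of the 30660 genes tested were. With no adjustment, 2 members of 43 (4.65%) had a p under 0.05, against 3.4% of all genes. They were 1 higher and 1 lower, where 1.77% and 1.63% of all genes were. Positive log2 fold changes were found for 27 of 43 (62.8%, against 46.2% of all genes), with a median of 0.18 that became -0.081 without S1pr1_KO replicate 3 and -0.029 without C3_KO replicate 3. Wnt1 alone of the 43 parted the groups, as 1.31% of all genes did (0.838% lower, 0.476% higher). It was 0.0273, 0.00541, 0.0176 and 0.0149 CPM in S1pr1_KO and 0.0398, 0.0845, 0.263 and 0.0446 CPM in C3_KO. These are 2 to 6 counts against 13 to 83, so the level rests on few reads. Wnt1 stood at log2 -2.73 (SE 1.02, edgeR adjusted p = 1.00) and at -1.80 without C3_KO replicate 3. Axin2 and Notum stood at log2 2.06 (SE 0.88) and 2.57 (SE 1.22), and at 0.16 and -0.14 without S1pr1_KO replicate 3. Wnt5b stood at -0.55 (SE 0.30) and at -0.20 without C3_KO replicate 2. Wnt3a was at -1.73 and at -0.66 without C3_KO replicate 3, and Fzd4 at 0.58 and at 0.30 without S1pr1_KO replicate 1. Among the other pathway genes, Znrf3, which removes Frizzled from the cell surface, stood at log2 0.67 (SE 0.22) and Kremen2, a Dickkopf receptor, at 1.68 (SE 0.66), neither called (edgeR adjusted p = 1.00).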

How the data were processed

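RNA of 12 tumours was analysed, 4 for each of 3 genotypes taken from the genotype label, with replicates numbered in accession order. The authors deposited raw counts per gene with a gene length column, and FPKM values. StringTie and build GRCm39 (mm39) are named per the submitters' processing notes, and the aligner, counting program and strand handling were not given in sources available for this work. Of the 682320 deposited FPKM values, 682318 equalled the count scaled by gene length and column total within a relative tolerance of 0.0001. Among counts from 1 to 50, 60.2 to 64.4% were even in each library, so the totals may count both mates of a pair, and whether they do was not tested.

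Counts were tested with edgeR 4.0.16 in R 4.3.3 (low-count filter, TMM scaling, robust quasi-likelihood F-test over all 12 libraries, Benjamini-Hochberg adjustment over 30660 genes, threshold 0.05). SEs are the absolute log2 fold change over the square root of F. The common biological coefficient of variation was 0.564. CPM is per 1000000 counts of the filtered library, scaled by TMM. Scripts were tested on simulated counts. Alternatives used DESeq2 1.42.0 and limma 3.58.1, other filters, FPKM with pseudocounts of 1 and 0.1, and left-out libraries.

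The members, gene lists and tests were chosen with earlier results of these data known. Named members were those called or, where fewer than 6 were called, the 6 of smallest p per comparison, with Axin2, Lef1, Notum, Lgr5 and the 2 highest of each role. Members and other genes named beyond this were picked after their values were seen. The other pathway genes (85) and the marker lists were written by hand. Promoter windows came from RefSeq tables of GRCm38.p6. Neighbouring ligand genes were found from the order of RefSeq protein-coding genes by chromosome and start.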

Additional observations from a re-analysis of the deposited data

Results flagged for a closer look

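Within a genotype, the gap of the highest or lowest of 4 tumours to its nearest neighbour was set against the range of the group. For 43 members in 3 genotypes, 17 of 129 groups (13.2%) had a tumour past the limit, 16 of them on the high side. Chance gives about 1 in 20 for normally distributed values, but CPM is skewed, and by the same rule 8.98% of the groups of all 30660 genes tested had such a tumour. In S1pr1_KO replicate 3, Axin2 at 57.3 CPM (next 5.76), Notum at 5.22 CPM (next 0.423), Wnt3 at 0.257 CPM (next 0.0351) and Wnt6 at 6.54 CPM (next 0.9) stood apart from the other 3 tumours. In C3_KO replicate 2, Fzd10 at 11.4 CPM (next 1.88), Fzd2 at 41 CPM (next 13.7) and Wif1 at 47.3 CPM (next 5.46) stood apart from the other 3 tumours. In S1pr1_KO replicate 4, Fzd6 at 64.9 CPM (next 39.7) and Wnt9a at 5.12 CPM (lowest, next 5.66) stood apart from the other 3 tumours. In WT replicate 2, Rspo3 at 1.56 CPM (next 0.359), Sfrp2 at 30 CPM (next 11.5), Sfrp4 at 9.47 CPM (next 1.79) and Wnt16 at 0.451 CPM (next 0.128) stood apart from the other 3 tumours. In S1pr1_KO replicate 1, Rspo3 at 1.06 CPM (next 0.104) stood apart from the other 3 tumours. In WT replicate 4, Wnt10a at 3.04 CPM (next 0.652) stood apart from the other 3 tumours. In C3_KO replicate 3, Wnt16 at 0.377 CPM (next 0.185) stood apart from the other 3 tumours. In S1pr1_KO replicate 2, Wnt5a at 38.1 CPM (next 25.9) stood apart from the other 3 tumours. WT replicate 2, S1pr1_KO replicate 3 and C3_KO replicate 2 held 11 of the 17.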

How the results depend on the processing

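The 3 counts of members called, each 0, stayed at 0 under 66 of 69 alternatives. The exceptions all concern S1pr1_KO against WT. With limma-voom and quality weights 4 members were called, namely Wnt5b, Fzd4, Lrp6 and Wnt2b, while that setting called 7828 genes in all. Leaving out 1 library at a time gave 0 to 1 members, the 1 being Fzd4 without S1pr1_KO replicate 3. Without S1pr1_KO replicate 3 and C3_KO replicate 2 together, an alternative chosen after seeing the data, 2 were called, Fzd4 at 1.27 and Wnt5b at -0.87. Over the whole table, edgeR called 0 genes in each comparison, and alternatives called 0 to 84 in C3_KO against WT, 0 to 7828 in S1pr1_KO against WT and 0 to 121 in S1pr1_KO against C3_KO. DESeq2 called no member in any comparison. Of the log2 fold changes of named members under alternatives, 397 kept their direction and their side of the threshold, 5 passed it and 5 turned in direction. Lef1 in C3_KO against WT ran from -0.058 (without C3_KO replicate 2) to 1.40 with 1 library left out, and was -0.028 without both tumours. Notum in S1pr1_KO against C3_KO ran from -0.14 (without S1pr1_KO replicate 3) to 3.27 with 1 library left out, and was -0.091 with limma-voom and -0.0099 without both tumours. The median over members ran from -0.058 to 0.25 in C3_KO against WT, 0.029 to 0.32 in S1pr1_KO against WT and -0.081 to 0.27 in S1pr1_KO against C3_KO. A filter of 1 CPM in 4 libraries left no value for Wnt1, Wnt3, Wnt3a, Wnt10b and Notum, nor did the fit of only the genotypes compared for Wnt3a in S1pr1_KO against C3_KO. With limma-voom Axin2 in S1pr1_KO against WT was 0.34. No paired analysis was possible because the labels give no number shared between genotypes. Members with few counts, such as Wnt1 and Wnt3a, are limited by depth, and the causes of these changes were not tested.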
